A study of Mus musculus with 16 samples.

Results

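The metabolic nuclear receptors described here are 8 genes, taken by symbol from a table of 20601 genes: Nr1i3, Nr1i2, Ppara, Thrb, Nr1h3, Rxra, Esrra and Nr3c1. All 8 were listed and all 8 passed the filter on low values. The RNA-seq libraries were made from tumor and from surrounding nontumor tissue of mouse liver, in a hepatocellular carcinoma model that injects plasmids hydrodynamically. Per mouse 19 µg of a human N-Ras construct, 1 µg of a human c-Myc construct and 2 µg of a plasmid for the Sleeping Beauty transposase, which inserts them into the genome, were given, so the nontumor liver is that of tumor-bearing animals and not healthy liver. From week 4 the animals ate a ketogenic diet (KD; 89.5% fat, 10.4% protein, 0.1% carbohydrate) or the normal diet (ND) over the next 4 weeks; both tissues were resected at week 8. The 16 libraries came from 8 mice and form 4 groups of 4, which are KD tumor, KD nontumor, ND tumor and ND nontumor. The labels give neither strain, sex nor age, and do not tie a tumor library to a nontumor library of the same mouse, so p-values measure the spread between these libraries.

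Nuclear receptors are transcription factors that bind DNA as single proteins, homodimers or heterodimers, and many of them are switched by small lipophilic ligands such as hormones, fatty acids, oxysterols and drugs. In hepatocytes CAR (Nr1i3), PXR (Nr1i2), PPAR alpha (Ppara), LXR alpha (Nr1h3) and the thyroid hormone receptor beta (Thrb) act largely as heterodimers with the retinoid X receptor alpha (Rxra). The glucocorticoid receptor (Nr3c1) and the estrogen-related receptor alpha (Esrra) bind without it. Receptor RNA does not report receptor activity, which also depends on ligand, location in the cell and coregulators.

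CAR and PXR, the xenobiotic pair, share ligands and target genes, and their RNA moved by unlike amounts in the tumors. The RefSeq sequence just upstream of both genes is therefore shown, 250 bases before the annotated start, 5′ to 3′ on the gene's own strand, in build GRCm38.p6. The Nr1i3 window is chr1:171213720-171213969 (plus strand) and the Nr1i2 window is chr16:38294825-38295074 (minus strand). Capitals mark the E-box CACGTG or the receptor-binding hexamer AGGTCA, searched on both strands.
Nr1i3: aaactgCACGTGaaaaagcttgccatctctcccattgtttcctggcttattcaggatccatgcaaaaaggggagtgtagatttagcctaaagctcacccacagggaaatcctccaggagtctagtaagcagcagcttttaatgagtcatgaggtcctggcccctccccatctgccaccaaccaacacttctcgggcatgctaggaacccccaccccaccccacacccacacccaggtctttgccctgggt
Nr1i2: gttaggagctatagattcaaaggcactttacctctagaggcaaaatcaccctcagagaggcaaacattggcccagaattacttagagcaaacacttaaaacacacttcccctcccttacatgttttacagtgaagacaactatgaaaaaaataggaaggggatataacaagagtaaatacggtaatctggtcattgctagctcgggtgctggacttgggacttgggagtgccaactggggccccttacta
Among 32851 mouse promoter windows of this length, 6.02% held CACGTG and 14% held AGGTCA. The Nr1i3 window held 1 CACGTG, whose first base lies at -244 from the start, and no AGGTCA. The Nr1i2 window held neither, and of the other motifs searched, CCAAT (33.8% of windows), TATAAA (12.4%) and direct repeats of AGGTCA spaced by 1 or 4 bases, it held only CCAAT, at -185. RefSeq windows were searched for 7 of the 8 receptors, 10 windows in all, and Nr3c1 was left out of this search. In the remaining 8 windows AGGTCA was found in 1 window of Thrb and, in 2 copies, in 1 of Rxra, and CACGTG in the other Thrb window. Letters that match a motif do not show binding.

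Levels are given as rescaled TPM, which is TPM (read counts corrected for transcript length and library total) divided by a factor for each library that sets the typical gene equal across libraries. TPM is per unit of transcript length, so levels can be set side by side between genes. Over the 8 nontumor libraries Nr1i2 had the highest mean (149 TPM), followed by Nr1h3 (101), Rxra (77.2), Esrra (32.6), Ppara (18.9), Nr1i3 (17.0), Nr3c1 (10.3) and Thrb (7.49). Differences are log2 fold changes ± SE from limma on log2(rescaled TPM + 1), with n = 4 per group, and a gene passed when its Benjamini-Hochberg adjusted p over all 13432 tested genes was below 0.05. The added 1 makes the log2 fold change of a low gene smaller than the ratio of its means.

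**Figure D1:**
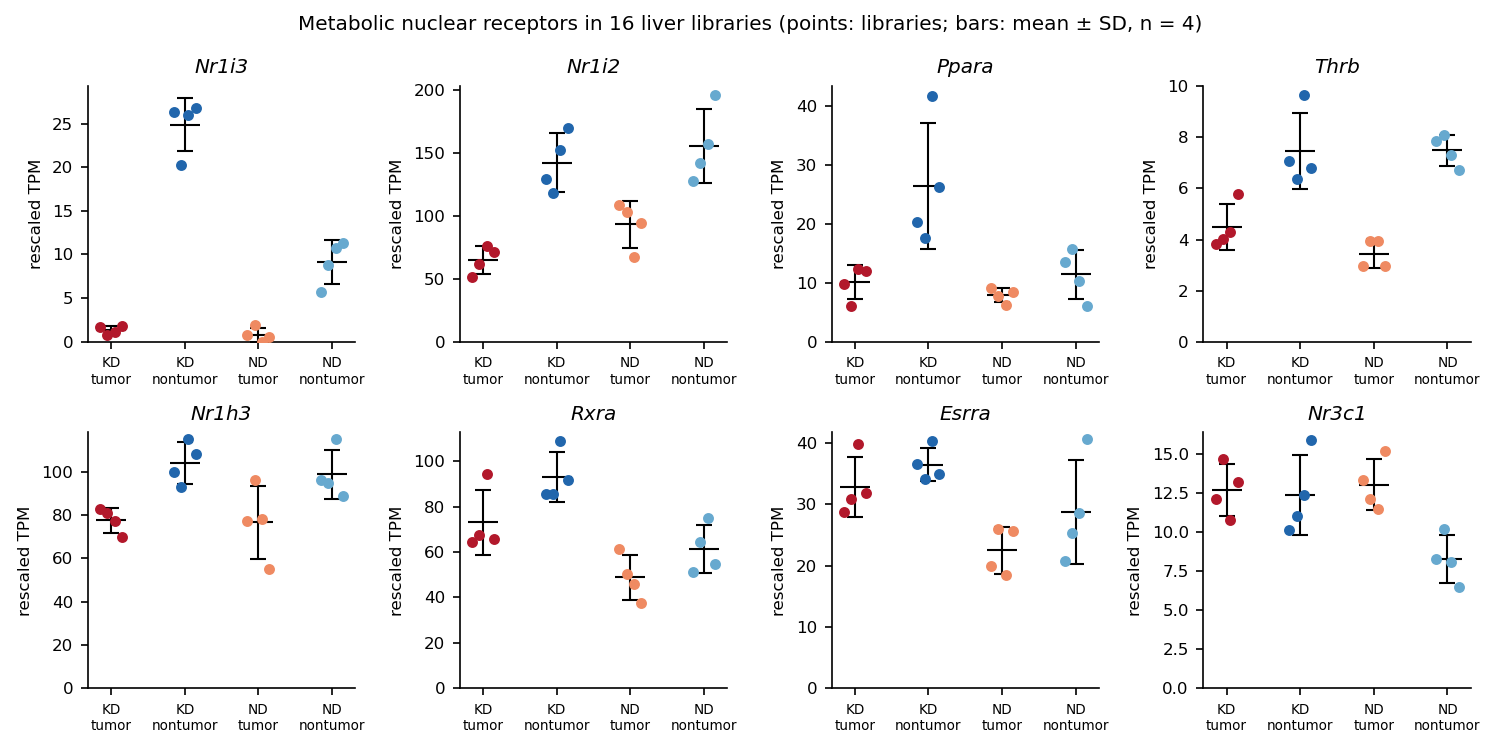
Level of each receptor in rescaled TPM (vertical axis, from 0) in the 16 libraries, grouped on the horizontal axis as KD tumor, KD nontumor, ND tumor and ND nontumor. Points are libraries and bars are mean ± SD (n = 4). Nr1i3 lies below 2 TPM in every tumor library and above 5 TPM in every nontumor library.

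The reads behind these values, recovered from the steps between TPM values, numbered 3518966 to 14074042 per library over the listed genes. The listed genes held 49.96% to 88.45% of the TPM total except in ND nontumor replicate 4, where they held 7.376% and the scaling factor was 0.1282. That library is also the shallowest, and no library was left out of the main fit. On the deposited scale the median of all tested genes moved by 0.42 (log2) in ND tumor against ND nontumor, -0.26 in KD tumor against KD nontumor and 0.69 in KD against ND nontumor. There Nr1i3 was the only receptor that passed in any comparison, and Ppara, Nr1h3, Rxra and Esrra changed sign in ND tumor against ND nontumor. Of the calls given below for other genes, those of Tomm40l, Thra, Ppargc1a, Hsd11b1, Abca1, Dio1 and Sirt1 in ND tumor against ND nontumor, of Ppard, Nr1h2, Klf9, Nr1h4, Cpt1a, Fabp1, Ndufa4 and Uqcrc2 in the comparisons named with them, and of Thra and Fgf21 on KD were lost on the deposited scale. All directions below are therefore relative to the typical gene.

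CAR was the receptor that fell furthest in tumors. Nr1i3 (chromosome 1, 171213970 to 171220701, plus strand, protein coding), a constitutively active inducer of cytochrome P450 and conjugation genes, was at 0.814, 1.88, 0 and 0.522 TPM in the 4 ND tumors, against 5.72, 8.85, 10.7 and 11.3 TPM in ND nontumor liver. On KD it was at 1.65, 0.824, 1.17 and 1.85 TPM in tumors, against 26.3, 20.3, 26.0 and 26.8 TPM in nontumor liver. No tumor library reached any nontumor library. The ratio of means was 11.4-fold lower in ND tumors (log2 fold change -2.56 ± 0.27, adjusted p = 5.72e-06) and 18.1-fold lower in KD tumors (-3.46 ± 0.27, adjusted p = 4.49e-07). The tumor levels rest on 0 to 42 reads per library on ND and 21 to 54 on KD, so the size of the fall is less certain than its direction: on whole reads (limma with voom) it was -4.59 ± 0.79 and -4.22 ± 0.48. Whether the fall differs between the diets did not pass (interaction -0.90 ± 0.39, adjusted p = 0.236), and the sign of that difference turned on whole reads (0.37).

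In nontumor liver Nr1i3 was higher in all 4 KD libraries than in any ND library, 24.8 ± 3.03 TPM against 9.15 ± 2.51 TPM (SD). The difference (1.38 ± 0.27) missed the threshold (adjusted p = 0.0936), although it ranked 16 of 13432 genes by p. It passed with sample weights (1.28, adjusted p = 0.00503) and on the deposited scale (2.20, adjusted p = 0.00701). Between tumors, 1.37 ± 0.463 TPM on KD and 0.805 ± 0.793 TPM on ND overlapped (0.48 ± 0.27, adjusted p = 0.234). Tomm40l, a gene on the opposite strand that overlaps Nr1i3, was also lower in tumors, at a mean of 1.16 TPM in ND tumor and 2.74 TPM in ND nontumor (-0.84 ± 0.25, adjusted p = 0.0196; lost on a common sum, -0.75, adjusted p = 0.0971) and at 1.60 TPM in KD tumor and 4.64 TPM in KD nontumor (-1.10 ± 0.25, adjusted p = 0.00344). Whether reads were counted by strand is not given in the sources used here, so the reads of these neighbours cannot be told apart.

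PXR fell less. Nr1i2 (chromosome 16, 38248323 to 38294824, minus strand, protein coding), the receptor for many drugs and bile acids, was at 109, 103, 67.1 and 94.2 TPM in ND tumors, against 128, 142, 157 and 196 TPM in ND nontumor liver. In KD tumors it was at 51.2, 62.0, 75.8 and 71.3 TPM, against 129, 118, 152 and 170 TPM in KD nontumor liver. Every tumor lay below every nontumor library of its diet (ND -0.74 ± 0.20, adjusted p = 0.0111; KD -1.12 ± 0.20, adjusted p = 0.000625). With the listed genes scaled to a common sum the ND difference no longer passed (-0.49, adjusted p = 0.152), and on deposited TPM it was -0.08 (adjusted p = 0.96). KD tumors had a mean of 65.1 ± 10.9 TPM and ND tumors one of 93.3 ± 18.5 TPM, with overlap at 67.1 TPM, and this difference did not pass (-0.50 ± 0.20, adjusted p = 0.0931). In nontumor liver KD and ND libraries overlapped widely (142 ± 23.5 and 156 ± 29.1 TPM).

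PPAR alpha, the receptor that drives fatty acid oxidation and ketogenesis in fasting, differed between tissues on KD. Ppara (chromosome 15, 85734983 to 85802819, plus strand, protein coding) was at 9.79, 6.14, 12.4 and 12.0 TPM in KD tumors, against 20.3, 17.6, 41.6 and 26.3 TPM in KD nontumor liver. The groups did not overlap, and Ppara fell in KD tumors (-1.28 ± 0.29, adjusted p = 0.00332), by 2.62-fold in the ratio of means. On ND the tumors were at 9.15, 7.79, 6.28 and 8.37 TPM and nontumor liver at 13.6, 15.7, 10.3 and 6.13 TPM, which overlapped through replicate 4 of the nontumor group, and the difference did not pass (-0.42 ± 0.29, adjusted p = 0.294). The interaction did not pass (-0.85 ± 0.41, adjusted p = 0.285).

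Across diets, nontumor Ppara averaged 26.4 ± 10.7 TPM on KD and 11.5 ± 4.20 TPM on ND. The KD libraries were all higher, from 17.6 TPM, than the ND libraries, up to 15.7 TPM, but the difference missed the threshold (1.14 ± 0.29, adjusted p = 0.176). Its 95% interval ran from 0.52 to 1.75. In tumors Ppara averaged 10.1 ± 2.86 TPM on KD and 7.90 ± 1.21 TPM on ND and overlapped (0.28 ± 0.29, adjusted p = 0.522). Ppard, the more widely expressed paralog, went another way: it was at 16.5 ± 3.16 TPM in ND tumors and 8.47 ± 1.58 TPM in ND nontumor liver (0.89 ± 0.17, adjusted p = 0.00097), and at 5.4 ± 0.769 TPM in KD tumors and 7.02 ± 0.934 TPM in KD nontumor liver (-0.33 ± 0.17, adjusted p = 0.151). It was lower in KD than in ND tumors (-1.44 ± 0.17, adjusted p = 0.000336), and its diet by tissue interaction passed (-1.21 ± 0.24, adjusted p = 0.034). The interaction passed in 0.618% of all tested genes and in 0 of the 8 receptors, of which 2 had an unadjusted p below 0.05 in limma; voom on whole reads gave the same count of calls.

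The thyroid hormone receptor beta, which mediates much of the action of thyroid hormone on liver lipid metabolism, fell in tumors on both diets. Thrb (chromosome 14, 17660261 to 18038090, plus strand, protein coding) was at 2.97, 3.95, 3.93 and 2.95 TPM in ND tumors, against 7.84, 8.09, 7.31 and 6.73 TPM in ND nontumor liver. In KD tumors it was at 3.84, 4.02, 4.31 and 5.8 TPM, against 7.07, 6.36, 9.67 and 6.80 TPM in KD nontumor liver. Neither pair of groups overlapped (ND -0.94 ± 0.16, adjusted p = 0.000445; KD -0.62 ± 0.16, adjusted p = 0.00775). Diet did not separate the nontumor groups (7.48 ± 1.49 TPM on KD, 7.49 ± 0.604 TPM on ND; -0.02, with a 95% interval from -0.36 to 0.33). The paralog Thra was lower in tumors too, at 8.80 ± 1.08 TPM in ND tumor and 16.2 ± 3.53 TPM in ND nontumor (-0.80 ± 0.24, adjusted p = 0.0189; on a common sum -0.57, adjusted p = 0.174, not passed), and at 9.44 ± 0.985 TPM in KD tumor and 19.2 ± 7.70 TPM in KD nontumor (-0.88 ± 0.24, adjusted p = 0.00999).

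LXR alpha, the oxysterol sensor of cholesterol efflux and lipid synthesis, passed in no comparison. Nr1h3 (chromosome 2, 91184061 to 91202834, minus strand, protein coding) was at 82.8, 80.7, 77.1 and 69.6 TPM in KD tumors, all below the 99.7, 92.8, 115 and 108 TPM of KD nontumor liver, yet this difference missed the threshold (-0.41 ± 0.17, adjusted p = 0.0717). It passed with the listed genes scaled to a common sum (-0.74, adjusted p = 0.0112). On ND it was at 77.2, 96.2, 78.0 and 54.9 TPM in tumors and 95.9, 94.9, 115 and 88.8 TPM in nontumor liver, where tumor replicate 2 lay among the nontumor values (-0.38 ± 0.17, adjusted p = 0.103), and without that library the difference passed (-0.50, adjusted p = 0.044). Liver macrophages also express Nr1h3; Kupffer cell markers were lower in tumors, and of the monocyte and macrophage markers more rose than fell, as given below, and their part in the Nr1h3 values was not tested. The paralog Nr1h2 fell in KD tumors (41.4 ± 4.01 TPM, against 60.5 ± 7.18 TPM in KD nontumor liver; -0.53 ± 0.17, adjusted p = 0.0218) and was lower in KD than in ND tumors (64.2 ± 12.0 TPM; -0.61 ± 0.17, adjusted p = 0.0235).

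RXR alpha, the shared heterodimer partner, was the only receptor that passed between the diets, and it did so in tumors. Rxra (chromosome 2, 27676440 to 27762957, plus strand, protein coding) was at 64.6, 67.4, 94.3 and 65.9 TPM in KD tumors, all above the 61.4, 50.1, 45.9 and 37.7 TPM of ND tumors (0.58 ± 0.18, adjusted p = 0.045). The call was lost when any of 7 of the 8 tumor libraries was left out, with 0.45 (adjusted p = 0.145) without KD tumor replicate 3, the highest value. It was also lost when scaled to a common sum (0.11, adjusted p = 0.743). In nontumor liver Rxra was at 85.4, 85.6, 109 and 91.8 TPM on KD, above the 51.4, 64.4, 74.8 and 54.9 TPM on ND, but missed the threshold (0.60 ± 0.18, adjusted p = 0.277). Tumor and nontumor values overlapped on both diets (ND -0.33 ± 0.18, adjusted p = 0.196; KD -0.36 ± 0.18, adjusted p = 0.153). Rxrb and Rxrg, the other retinoid X receptors, passed in none of the 5 comparisons.

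ERR alpha, an orphan receptor that works with PGC-1 coactivators on mitochondrial genes, was at 28.7, 30.8, 39.9 and 31.8 TPM in KD tumors, above the 19.9, 25.9, 18.5 and 25.6 TPM of ND tumors without overlap. This difference in Esrra (chromosome 19, 6910977 to 6921813, minus strand, protein coding) missed the threshold (0.53 ± 0.19, adjusted p = 0.0647; 95% interval 0.13 to 0.93). KD nontumor liver had 36.5 ± 2.71 TPM and ND nontumor liver 28.8 ± 8.51 TPM, and no other comparison passed. Trmt112 overlaps Esrra on the opposite strand and did not pass in any comparison (25.9 to 76.3 TPM over the libraries). The coactivator gene Ppargc1a fell in ND tumors (1.05 ± 0.185 TPM, against 2.27 ± 0.405 TPM in ND nontumor liver; -0.67 ± 0.20, adjusted p = 0.0214), a call lost on a common sum (-0.55, adjusted p = 0.17). Ppargc1b fell in KD tumors (1.73 ± 0.525 TPM, against 6.39 ± 3.68 TPM in KD nontumor liver; -1.32 ± 0.30, adjusted p = 0.0036).

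The glucocorticoid receptor was the only one of the 8 that rose in tumors, and it did so on ND. Nr3c1, which mediates the cortisol and corticosterone control of gluconeogenesis, was at 13.3, 12.1, 11.5 and 15.2 TPM in ND tumors, against 8.25, 10.2, 8.11 and 6.49 TPM in ND nontumor liver, without overlap (0.60 ± 0.17, adjusted p = 0.0129). On KD the tumors were at 12.1, 14.7, 10.8 and 13.2 TPM and nontumor liver at 10.1, 11, 12.4 and 15.9 TPM, which overlapped (0.05 ± 0.17, with a 95% interval from -0.31 to 0.40). Nontumor liver was at 12.3 ± 2.57 TPM on KD and 8.27 ± 1.53 TPM on ND (0.52 ± 0.17, adjusted p = 0.313), with overlap at the ND value of 10.2 TPM. The interaction did not pass (-0.56 ± 0.24, adjusted p = 0.236). Hsd11b1, whose enzyme regenerates active glucocorticoid, was at 110 ± 32.0 TPM in ND tumors and 189 ± 49.8 TPM in ND nontumor liver (-0.78 ± 0.27, adjusted p = 0.0369), and was higher in KD tumors (205 ± 69.5 TPM) than in ND tumors (0.87 ± 0.27, adjusted p = 0.0363). Both Hsd11b1 calls were lost on a common sum (-0.53, adjusted p = 0.064, and 0.41, adjusted p = 0.164) and on deposited TPM.

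**Figure D2:**
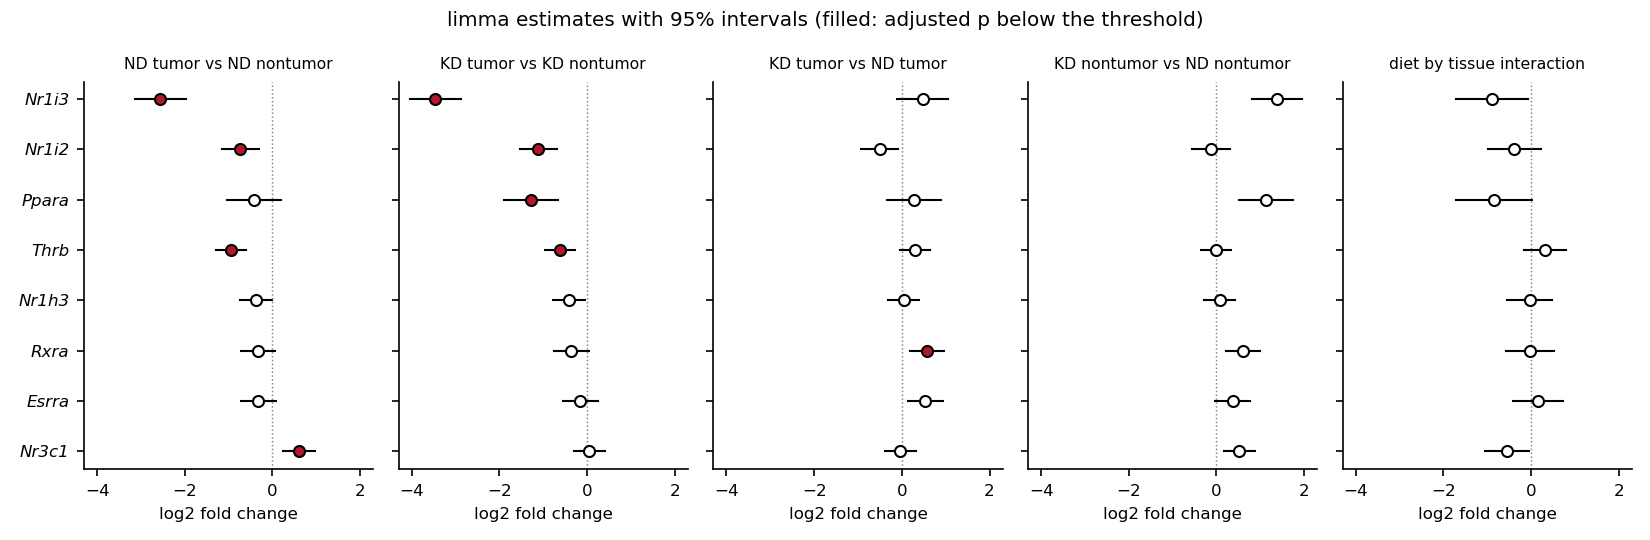
Log2 fold change of each receptor (rows) in 5 comparisons (panels, horizontal axis in log2 units, first-named group over the second), with 95% intervals from limma; filled points passed. Nr1i3 lies farthest from 0 in both tumor against nontumor panels, and in the 2 panels on the right no point is filled.

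Counted over the family, 3 of the 8 receptors fell and 1 rose in ND tumors, with a median of -0.40, where 14.2% of all tested genes fell and 14.5% rose. In KD tumors 4 fell and 0 rose, with a median of -0.52, against 16.2% and 16.3% of all tested genes. Between the diets in tumors 1 was higher and 0 lower, against 7.21% and 8.49%, which is near the background. In nontumor liver 0 of the 8 passed between the diets by limma, by which 4 had an unadjusted p below 0.05, and 0 by voom; of all genes 0.0521% (7) passed. In that comparison 3 receptors, Nr1i3, Ppara and Rxra, were higher on KD without overlap, as were 3.19% of all tested genes. The median of all tested genes lay between 0 and 0.03 in these 4 comparisons. The KD and ND tumor comparisons share libraries with the tumor against nontumor comparisons, so their values are not independent.

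Markers of resident macrophages were lower in tumors. Beside the counts that follow, 14.2% of all tested genes fell and 14.5% rose on ND, and 16.2% fell and 16.3% rose on KD. Of 10 tested Kupffer cell markers 9 fell on ND and 8 on KD, and the summed level of all 11 was 47.3 to 89.5 TPM in KD tumor and 232 to 395 TPM in KD nontumor, with 32.8 to 55.8 TPM in ND tumor against 385 to 550 TPM in ND nontumor, and no marker was at 0 throughout a group. Clec4f, the defining marker, was at 7.18 ± 2.17 TPM in ND tumor and 136 ± 17.4 TPM in ND nontumor. Of 12 sinusoidal endothelial markers 5 fell and 3 rose on ND and 2 fell on KD, with a summed level of 99.6 to 185 TPM in KD tumor and 127 to 211 TPM in KD nontumor, with 116 to 175 TPM in ND tumor against 148 to 175 TPM in ND nontumor. Of 7 tested liver tumor markers 6 rose on ND and 5 on KD. Of 12 monocyte and macrophage markers 3 rose and 2 fell on ND and 4 rose and 1 fell on KD, and of 13 stellate cell markers 3 rose and 4 fell on ND and 4 rose and 3 fell on KD. Of 8 T and NK cell markers 4 rose on ND and 1 on KD, of 6 red blood cell genes 4 fell on ND and 0 on KD, and of 6 bile duct markers 2 rose and 1 fell on ND and 1 rose and 1 fell on KD. Among the counts near the shares of all tested genes are the 2 sinusoidal endothelial markers that fell on KD. Others are the 2 monocyte and macrophage markers that fell on ND, and the T, NK and bile duct markers that passed on KD. Hepatocyte markers were abundant in all libraries, at a summed 138000 to 191000 TPM in KD tumor and 37700 to 120000 TPM in KD nontumor, with 70300 to 132000 TPM in ND tumor against 63800 to 125000 TPM in ND nontumor. Of 14 tested hepatocyte markers 1 rose and 4 fell on ND, and 4 rose and 3 fell on KD. Cyp2e1, a hepatocyte P450 gene, fell on both (ND -4.82 ± 0.51, adjusted p = 5.01e-06; KD -2.14 ± 0.51, adjusted p = 0.00443) and was higher in KD than in ND tumors (3.17 ± 0.51, adjusted p = 0.00173). Between KD and ND tumors 5 sinusoidal endothelial markers were higher and 3 lower, 2 Kupffer cell markers (Cd5l and Clec4f) were higher and 0 lower, and 1 hepatocyte marker was higher and 0 lower, while 0 monocyte and macrophage markers passed by limma. On a common sum these splits were 3 higher and 4 lower, 1 and 1, and 1 and 1, and on deposited TPM 2 and 0, 0 and 0, and 1 and 0. The 1 hepatocyte marker is near the 7.21% of all tested genes that were higher, where 8.49% were lower. The bile duct marker Sox9 was lower in KD than in ND tumors (-1.96 ± 0.22, adjusted p = 0.000336). The neutrophil marker S100a8 (1.87 ± 0.59, adjusted p = 0.0424) and the B cell marker Jchain (1.19 ± 0.39, adjusted p = 0.0497) were higher. On either other scaling 0 neutrophil and 0 B cell markers passed. Hepatocyte markers against nontumor liver numbered 2 higher and 5 lower on ND and 5 and 3 on KD on a common sum, and 0 and 1 on each diet on deposited TPM. The hepatocyte receptor gene Hnf4a passed in no comparison (254 ± 18.2, 269 ± 20.8, 274 ± 62.5 and 293 ± 41.8 TPM in KD tumor, KD nontumor, ND tumor and ND nontumor). In bulk tissue fewer cells of a type and less RNA per cell cannot be told apart, and the part of cell makeup in the receptor values was not tested.

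Ratios between related receptors, taken within each library, do not depend on the scaling. The Nr1i3 to Nr1i2 ratio had a median of 0.0207 in KD tumor, 0.172 in KD nontumor, 0.00747 in ND tumor (the 3 libraries with Nr1i3 above 0) and 0.0601 in ND nontumor. On log2 it was lower in tumors without overlap (ND -2.66, KD -3.11) and higher in KD than in ND nontumor liver (1.61). The Ppara to Ppard ratio had a median of 2.03 in KD tumor, 3.70 in KD nontumor, 0.464 in ND tumor and 1.39 in ND nontumor, and KD tumors lay above ND tumors without overlap (1.92) and ND tumors below ND nontumor without overlap (-1.43). Rxra to Rxrb was 2.36 in KD tumor and 1.37 in ND tumor at the median (0.81), and Nr1h3 to Nr1h2 was 1.89 and 1.30 (0.66), each without overlap. In nontumor liver Rxra to Rxrb was also higher on KD without overlap, with a median of 2.68 on KD and 1.90 on ND (0.48). The Thrb to Thra ratio overlapped in every comparison, with medians of 0.432, 0.437, 0.382 and 0.459 in KD tumor, KD nontumor, ND tumor and ND nontumor. Nr3c1 to Nr3c2, the mineralocorticoid receptor gene, had a median of 14.3 in KD tumor, 5.74 in KD nontumor, 16.3 in ND tumor and 13.9 in ND nontumor, without overlap in KD tumor against KD nontumor (1.18) and KD against ND nontumor (-1.76), though Nr3c2 averaged 2.03 TPM or less in every group. Esrra to Ppargc1a overlapped in every comparison. By exact two-sided permutation tests none of the 28 differences (7 pairs, 4 comparisons) passed. The smallest p that 4 against 4 allows in these tests is 0.0286, and the smallest adjusted p was 0.08. With that floor and 28 tests a single difference could not pass on its own, so no conclusion is drawn from the lack of passing ratios.

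**Figure D3:**
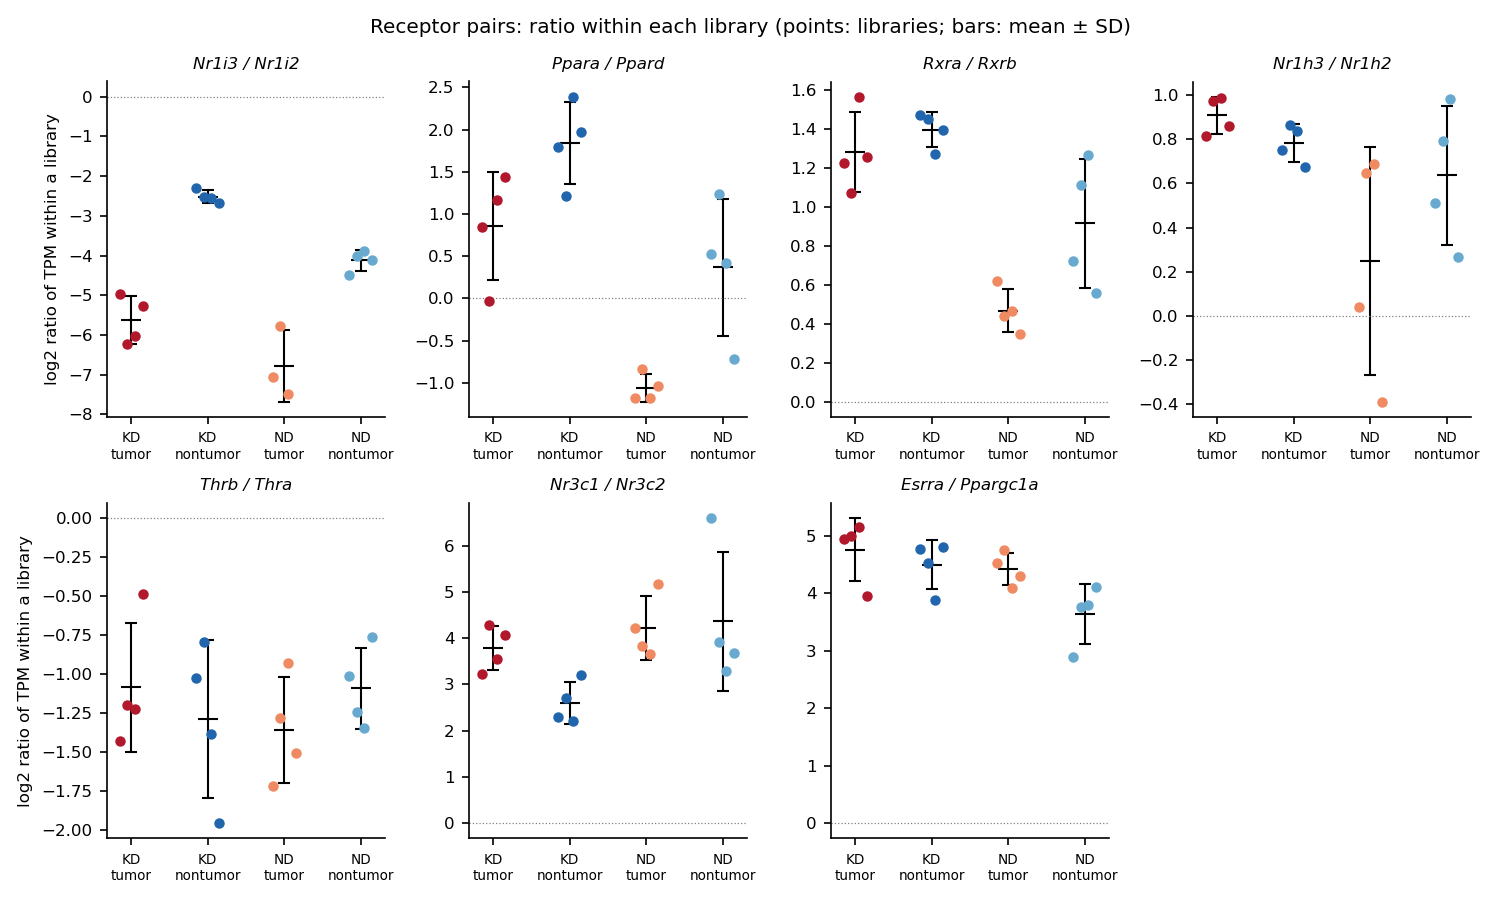
Log2 ratio of a receptor to a related gene within each library (vertical axis, own range per panel), in KD tumor, KD nontumor, ND tumor and ND nontumor. Points are libraries, bars are mean ± SD, and the dotted line marks equal levels; the ND tumor library with Nr1i3 at 0 has no ratio. Ppara to Ppard lies below equality in the ND tumors.

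The known target genes of each receptor moved by list. Of all tested genes 14.2% fell and 14.5% rose in ND tumors, and 16.2% fell and 16.3% rose in KD tumors. Between the tumors 7.21% were higher and 8.49% lower on KD. Of 30 PPAR alpha targets 20 fell and 3 rose in ND tumors (median -1.29), and 14 fell and 6 rose in KD tumors (median -0.67). Scaled to a common sum, 20 fell and 4 rose on ND, and 18 fell and 5 rose on KD. The deposited scale left 4 that fell and 3 that rose on ND (median -0.7), and 8 and 0 on KD (median -1.01). In the main fit 15 were higher and 0 lower in KD than in ND tumors (median 0.91), while Ppara itself did not pass. With the listed genes scaled to a common sum 10 were higher and 0 lower (median 0.50), and on deposited TPM 1 was higher and 0 lower (median 0.87). Sinusoidal endothelial and Kupffer cell markers also differed between these tumors, as given above, and their part in the target values was not tested. The fatty acid hydroxylase gene Cyp4a14 was at 20.6 ± 24.2 TPM in KD tumor, 492 ± 281 in KD nontumor, 0.199 ± 0.231 in ND tumor and 184 ± 135 in ND nontumor (KD against ND tumor 3.63 ± 0.65, adjusted p = 0.00313). Cpt1a, the carnitine transferase of mitochondrial fatty acid entry, was at 115 ± 31.9 TPM in KD tumor and 41.2 ± 3.32 TPM in ND tumor (1.42 ± 0.21, adjusted p = 0.00124). The hormone gene Fgf21 rose in tumors (ND 1.5 ± 0.27, adjusted p = 0.000583; KD 1.24 ± 0.27, adjusted p = 0.00245).

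Of 23 tested CAR and PXR targets 13 fell on each diet, with 2 that rose on ND and 3 on KD (medians -1.13 and -1.07). Cyp2c54, a P450 gene with close copies, between which the split of reads is uncertain, fell by 8.40 ± 0.46 on ND (adjusted p = 1.16e-08) and by 5.92 ± 0.46 on KD (adjusted p = 4.18e-07). Cyp2b9 rose, by 5.76 ± 0.73 on ND (adjusted p = 2.53e-05) and by 2.91 ± 0.73 on KD (adjusted p = 0.00604). Cyp3a11, the standard PXR readout, was at 16.5 ± 2.92 TPM in ND tumors and 168 ± 114 TPM in ND nontumor liver (-3.01 ± 0.59, adjusted p = 0.00115), and at 87.4 ± 59.5 TPM in KD tumors and 87.4 ± 67.6 TPM in KD nontumor liver (0.20 ± 0.59, adjusted p = 0.814). The standard CAR readout Cyp2b10 was too low to be tested, with means of 0.0478 TPM in KD tumor, 0.269 in KD nontumor, 0.0321 in ND tumor and 0.052 in ND nontumor.

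Of 24 ERR alpha targets 9 were higher and 0 lower in KD than in ND tumors (median 0.63), led by Ndufa4 (1.79 ± 0.47, adjusted p = 0.0196) and Uqcrc2 (1.53 ± 0.34, adjusted p = 0.00958) of the respiratory chain. That split rests on the scaling: on a common sum 4 were higher and 3 lower (median 0.18), and on deposited TPM 0 passed (median 0.59). In ND tumors 7 fell and 0 rose against nontumor liver, and in KD tumors 4 fell and 0 rose (medians -0.38 and -0.03). The 4 of 24 on KD are near the 16.2% of all tested genes that fell there, where 14.2% fell on ND. On a common sum 6 fell on ND and 8 on KD with 0 that rose. On deposited TPM 0 passed on either diet (medians 0.26 and -0.32). Of 18 LXR targets 5 rose and 5 fell on ND, and 4 rose and 5 fell on KD. On a common sum 5 rose and 3 fell on ND, and 2 rose and 5 fell on KD. On deposited TPM 2 rose and 1 fell on ND, and 1 rose and 2 fell on KD. Abca1, the cholesterol efflux transporter, rose in ND tumors (23.0 ± 3.06 TPM, against 13.1 ± 2.57 TPM in ND nontumor liver; 0.77 ± 0.16, adjusted p = 0.00146). Srebf1 passed in no comparison. In nontumor liver 2 LXR targets passed between the diets: Scd1, the stearoyl-CoA desaturase, was lower on KD (51.4 ± 22.1 TPM, against 973 ± 78.6 TPM on ND; -4.33 ± 0.39, adjusted p = 6.31e-05) and Cyp7a1, which starts the conversion of cholesterol to bile acids, was higher (18.7 ± 3.71 TPM, against 3.22 ± 0.902 TPM; 2.23 ± 0.25, adjusted p = 0.000588).

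Of 16 thyroid hormone targets 8 fell and 2 rose on ND, and 4 fell and 4 rose on KD. On a common sum 7 fell and 2 rose on ND, and 6 fell and 1 rose on KD, and on deposited TPM 3 fell and 2 rose on ND, and 3 fell and 0 rose on KD. Klf9, induced by thyroid hormone and by glucocorticoid, fell in ND tumors (25.8 ± 3.64 TPM, against 70.3 ± 11.5 TPM in ND nontumor liver; -1.41 ± 0.20, adjusted p = 9.03e-05) and in KD tumors (38.2 ± 12.2 TPM, against 61.5 ± 6.49 TPM; -0.72 ± 0.20, adjusted p = 0.0129). Dio1, which activates thyroid hormone, fell in ND tumors (38.6 ± 15.1 TPM, against 95.9 ± 49.0 TPM; -1.22 ± 0.43, adjusted p = 0.0413). Of 24 glucocorticoid targets 13 fell and 5 rose on ND, and 14 fell and 6 rose on KD (medians -0.78 and -0.93), though Nr3c1 was not lower in either. That split rests on the scaling. On a common sum 9 fell and 5 rose on ND, and 16 fell and 6 rose on KD. On deposited TPM 3 fell and 5 rose on ND, and 5 fell and 4 rose on KD (medians -0.13 and -1.26). Tat, the tyrosine aminotransferase, fell (ND -3.72 ± 0.51, adjusted p = 6.04e-05; KD -3.48 ± 0.51, adjusted p = 0.000136), and the metallothionein gene Mt2 rose (ND 3.65 ± 0.60, adjusted p = 0.000312; KD 3.85 ± 0.60, adjusted p = 0.000227). Fkbp5, a glucocorticoid-induced chaperone gene, passed in no comparison. Some genes stand in more than 1 list, and a list's count says nothing of whether its receptor drives it.

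**Figure D4:**
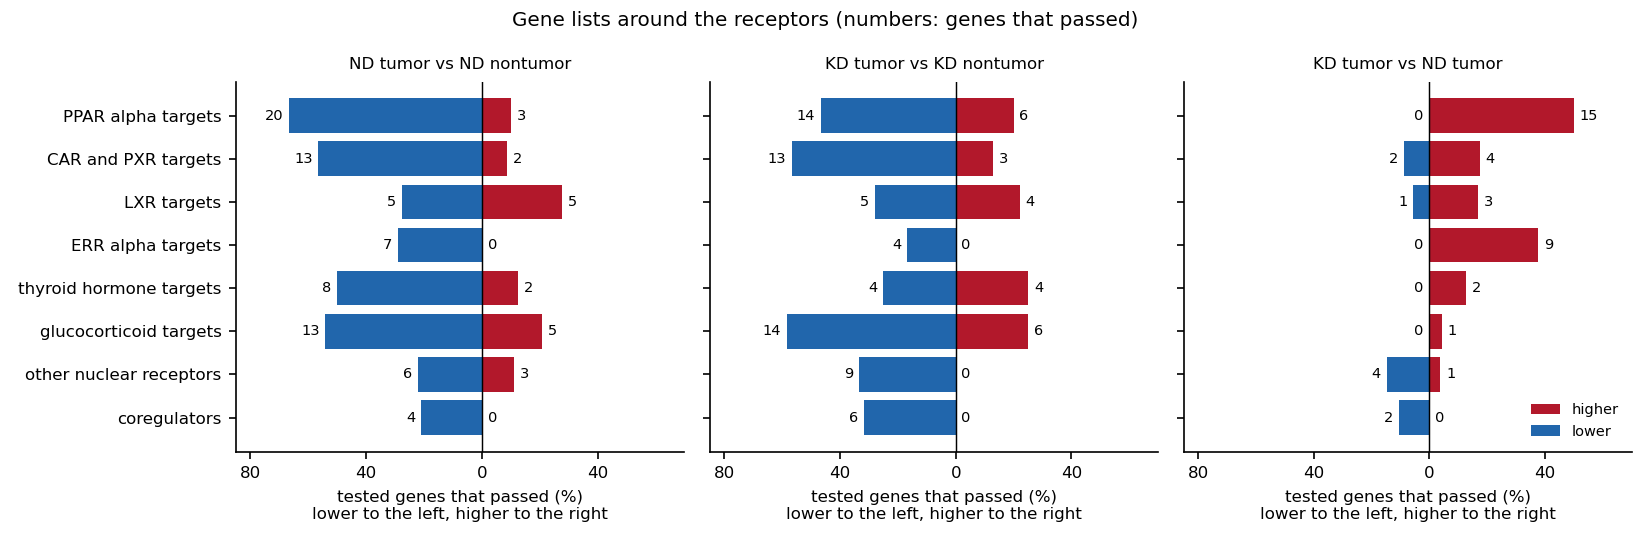
Share of tested genes in each list that passed (horizontal axis in percent, lower to the left and higher to the right of 0), with the number of genes beside each bar, for ND tumor against ND nontumor, KD tumor against KD nontumor and KD tumor against ND tumor. In the last panel 15 PPAR alpha and 9 ERR alpha targets are higher and 0 are lower; on a common sum the ERR alpha split is 4 higher and 3 lower.

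Among 27 other tested nuclear receptors 6 fell and 3 rose on ND, 9 fell and 0 rose on KD, and 4 were lower and 1 higher in KD than in ND tumors. On a common sum these splits were 5 and 3, 10 and 0, and 6 and 0. On deposited TPM they were 2 and 1, 2 and 0, and 0 and 0. Of all tested genes 14.2% fell and 14.5% rose on ND, and 16.2% fell and 16.3% rose on KD. Between the tumors 8.49% were lower and 7.21% higher on KD. The bile acid receptor gene Nr1h4 fell on ND (100 ± 5.93 TPM in tumor, 291 ± 42.2 TPM in nontumor liver; -1.52 ± 0.29, adjusted p = 0.000861) and on KD (143 ± 60.8 and 330 ± 133 TPM; -1.19 ± 0.29, adjusted p = 0.00479). Its target gene Nr0b2 passed in no comparison, nor did Pparg. Of 19 coregulators 4 fell on ND, 6 on KD and 2 were lower in KD than in ND tumors, with 0 higher in any of these. The 2 that were lower between the tumors are near the share of all tested genes (8.49%). On a common sum 0 fell and 1 rose on ND, 9 fell on KD and 3 were lower between the tumors. On deposited TPM 2 fell on KD, and 0 passed on ND or between the tumors. Sirt1, a deacetylase that acts on PGC-1, fell on both diets (ND -1.04 ± 0.25, adjusted p = 0.00504, but -0.86, adjusted p = 0.0535, on a common sum; KD -1.13 ± 0.25, adjusted p = 0.00272).

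Genes that supply or remove ligand were measured alongside. Of 8 oxysterol genes 3 fell on each diet, among them Cyp27a1, which makes an LXR ligand (ND -3.09 ± 0.22, adjusted p = 6.97e-08; KD -3.52 ± 0.22, adjusted p = 4.66e-08), while 2 rose on ND and 3 on KD. Of 12 retinoid genes 6 fell and 2 rose on ND and 5 fell and 3 rose on KD, with Cyp26a1, the retinoic acid hydroxylase, lower on both (ND -2.51 ± 0.44, adjusted p = 0.000542; KD -2.87 ± 0.44, adjusted p = 0.000199). Of 8 thyroid hormone transport and deiodination genes 5 fell and 1 rose on ND, and 3 fell on KD, with the transporter gene Slco1a1 furthest down (ND -4.22 ± 0.28, adjusted p = 4.96e-08; KD -3.76 ± 0.28, adjusted p = 2.98e-07). Of 12 fatty acid handling genes 4 rose and 5 fell on ND and 5 rose and 3 fell on KD. On a common sum 5 rose and 5 fell on ND and 4 rose and 5 fell on KD, and on deposited TPM 3 rose on ND and 2 on KD, with 0 that fell. Fabp1, which carries fatty acids to PPAR alpha, was higher in KD than in ND tumors (2.50 ± 0.59, adjusted p = 0.0122). Of 12 glucocorticoid handling genes 3 fell and 1 rose on ND and 3 fell on KD. On a common sum 2 fell and 1 rose on ND and 3 fell on KD, and on deposited TPM 1 fell on each diet. In the oxysterol, retinoid and thyroid lists 3, 5 and 5 fell on ND on a common sum, and 3, 7 and 3 on KD. There 2, 3 and 1 rose on ND, and 2, 3 and 0 on KD. On deposited TPM 2, 3 and 2 fell on ND, and 3, 3 and 3 on KD. On that scale 2, 2 and 0 rose on ND, and 0, 1 and 0 on KD. Of 11 genes tied to the cytoplasmic retention and release of CAR and to its upstream signals, Rack1 and Ppp2cb rose and Egfr fell on ND, and Rack1 and Ppp2ca rose on KD. On a common sum 2 rose and 0 fell on ND and 1 rose and 1 fell on KD, and on deposited TPM 0 passed. Of all tested genes 14.2% fell and 14.5% rose on ND, and 16.2% fell and 16.3% rose on KD. The 2 retention and signal genes that rose on each diet are near those shares.

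The genes with the profile most like each receptor over the 16 libraries were chosen by Pearson's r on the log2 scale. This is a description only: r includes the differences between the groups, so r on deviations from the group means is given beside it. Nearest to Nr1i3 was Ces1d (r = 0.963, and 0.578 on deviations from the group means), to Nr1i2 Klc1 (0.948 and 0.739), and to Ppara Rufy3 (0.928 and 0.78). Nearest to Thrb was Tgfbrap1 (0.972 and 0.816), followed by Klf15 (0.956 and 0.781). Nearest to Nr1h3 was Rhbdd3 (0.918 and 0.82), to Rxra Gpd1 (0.91 and 0.881), to Esrra Atp1b1 (0.893 and 0.777), and to Nr3c1 Map2k3os (0.845 and 0.763).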

How the data were processed

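Polyadenylated RNA from 16 libraries, 4 per group, was sequenced. Per the submitters' processing notes the tools were FastQC, HISAT2, SAMtools and featureCounts with build mm10; versions, the annotation, strand setting and the step to TPM are not given in the sources used here. The authors deposited 1 table of TPM values for 20601 genes; its nontumor columns carry P where the titles carry N and were matched by diet letters and number, and 0 columns were left unused. Mitochondrially encoded genes were not analysed here (0 listed). Each library's TPM was divided by its median ratio to the geometric mean, taken over 12119 genes detected in all libraries. Whole reads were recovered for 100% of genes (tolerance 0.001 reads). Libraries of 1 group differed beyond sampling noise (chi-square per degree of freedom at least 11.6).

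A gene entered the fit when 4 or more libraries had 1 TPM or more (13432 genes). It was fitted with limma 3.58.1 in R 4.3.3, with a variance trend, on log2(rescaled TPM + 1), all 16 libraries in 1 fit without a block; the fit was tested on simulated data. Pair ratios were tested with Python 3.11.15 and adjusted over 28 tests. Positions and overlaps came from GENCODE M21 (GRCm38) and promoter windows from RefSeq (GRCm38.p6). Genes were named by rule: the 8 receptors, up to 4 passing genes per list and comparison with the largest change, a set of 21 partners and readouts, and 3 nearest profiles per receptor, from which the text gives a selection. Cpt1a and the overlapping genes Tomm40l and Trmt112 were named outside this rule. The receptors and lists were chosen with earlier results of these data known. Alternatives were 2 other scalings, a pseudocount of 0.1, no filter, sample weights, a replicate block, only the groups compared, each library left out and, chosen after seeing the data, voom on whole reads.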

Additional observations from a re-analysis of the deposited data

Results flagged for a closer look

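Several values stood apart from the other 3 libraries of their group by Dixon's criterion. Nr1i3 in KD nontumor replicate 2 was low at 20.3 TPM, and Rxra in KD tumor replicate 3 was high at 94.3 TPM. Among partner and readout genes, KD tumor replicate 4 was high for Dio1 (137 TPM), Cyp4a14 (56.7 TPM) and Ppargc1a (2.06 TPM). Ppargc1a was also high in KD nontumor replicate 3 (2.73 TPM), and Ppargc1b was low in KD tumor replicate 2 (0.955 TPM). Of 143 groups tested 7 held such a value, where chance gives about 1 in 20. That count leaves out Cyp2b10, which exceeded the criterion in KD tumor, ND tumor and ND nontumor with every value under 1 TPM. Its groups are among the 143, so the 2 numbers were not counted alike and no comparison with chance is drawn.

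The diet difference in tumors departed from that in nontumor liver, by the limma interaction term, for 6 of the named list genes, and for 0 of the 8 receptors. It was negative for Ppard (-1.21, adjusted p = 0.034). It was positive for Scd1 (3.46, adjusted p = 0.0176), for the glycerol phosphate dehydrogenase gene Gpd2 (1.54, adjusted p = 0.0263), for the Kupffer cell marker Cd5l (2.77, adjusted p = 0.0391), and for the sinusoidal endothelial markers Clec4g (2.16, adjusted p = 0.044) and Stab2 (1.44, adjusted p = 0.0492). On a common sum the terms of Gpd2 (1.10, adjusted p = 0.0726) and Stab2 (0.93, adjusted p = 0.12) did not pass, and on deposited TPM 0 of the 6 passed.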

How the results depend on the processing

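Nr1i3 passed in tumors of both diets under every alternative run, and Nr1i2, Thrb, Ppara (KD) and Nr3c1 (ND) passed whichever library was left out. On deposited TPM 1418, 1111, 113, 65 and 14 genes passed (ND tumor against nontumor, KD tumor against nontumor, KD against ND tumor, KD against ND nontumor, interaction), with 1, 1, 0 and 1 receptors in the first 4. The deposited split was 1094 higher and 324 lower, 387 and 724, 39 and 74, 60 and 5, and 2 and 12; on a common sum it was 2612 and 1089, 1197 and 2826, 273 and 2606, 7 and 6, and 33 and 513, against 1946 and 1909, 2189 and 2175, 969 and 1140, 1 and 6, and 28 and 55 as reported. On the common sum 13 genes passed between nontumor groups and 546 in the interaction. Between nontumor groups 4 genes passed with a pseudocount of 0.1, 2 with only the groups compared and 433 (1 receptor) with sample weights. The interaction had 32 without a filter and 386 with weights. Receptors that passed between tumors numbered 0 without a filter or with only the groups compared, and 2 with weights.

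Signs that turned were those of receptors that had not passed. On deposited TPM these were, in ND tumor against nontumor, Ppara 0.01, Nr1h3 0.26, Rxra 0.30 and Esrra 0.31; Nr3c1 -0.26 in KD tumor against nontumor; Nr1i2 0.83 and Thrb 0.70 between nontumor groups; and Esrra -0.79 and Thrb -0.43 in the interaction. On the common sum they were Nr3c1 -0.26 in KD tumor against nontumor, Ppara -0.14, Nr1h3 -0.42 and Thrb -0.08 between tumors, Thrb 0.09 between nontumor groups, and Esrra -0.41 and Thrb -0.17 in the interaction. With weights they were Nr1h3 -0.03 between nontumor groups, and Nr1h3 0.04 and Rxra 0.16 in the interaction. On voom Nr1i3 turned in the interaction (0.37), and the Nr3c1 to Nr3c2 ratio in ND tumor against nontumor turned with a pseudocount of 1 (0.41). The cause was not tested.

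Leaving out 1 library gave 3087 to 3783, 3263 to 4504, 1041 to 1985, 5 to 12 and 9 to 190 genes in the 5 comparisons, and 4 to 5, 4 to 4, 0 to 1, 0 to 0 and 0 to 0 receptors, with 190 in the interaction without ND nontumor replicate 4. Counts moved by over 1.5 times between tumors without KD tumor replicates 3 (1041) and 4 (1110) and ND tumor replicate 1 (1151), between nontumor groups without KD nontumor replicate 4 (12), and in the interaction without any library other than KD nontumor 1, KD tumor 1 and ND tumor 3 and 4. Ranges that crossed 0 were Nr3c1 -0.04 to 0.16 (KD tumor against nontumor), Nr1h3 -0.11 to 0.16 and Nr3c1 -0.10 to 0.03 (between tumors), Thrb -0.13 to 0.05 (between nontumor groups), and Esrra -0.01 to 0.29, Nr1h3 -0.18 to 0.09 and Rxra -0.16 to 0.09 (interaction). Among ratios they were Thrb to Thra -0.02 to 0.37 (KD tumor against nontumor) and -0.36 to 0.02 (between nontumor groups), and Nr3c1 to Nr3c2 -0.51 to 0.59 (ND tumor against nontumor).

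The replicate numbers do not pair the libraries by the labels, and same-numbered deviations correlated at -0.112 to 0.164 over 8 pairs. With the number as a replicate block 3447, 3908, 1800, 8 and 32 genes passed, and the receptors that passed numbered 4, 4, 1, 0 and 0. Depth limits the tumor values of Nr1i3, which rest on 0 to 54 reads per library.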
